A study of Zea mays with 4 samples.

Results

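The 102 loci described here are the longer of the very abundant transcribed loci of maize (Zea mays) endosperm. They were chosen from 29642 entries by a mean of at least 500 FPKM over 4 libraries and by a locus length, from the end minus the start given in the files, of at least 1200 bp, on chromosomes 1 to 10 or scaffolds. FPKM is the number of sequenced fragments scaled by transcript length and by library size, so levels can be compared between loci. The libraries came from endosperm at 15 days after pollination, from the rea1 mutant and from wild type, each as total RNA and as polysome-bound RNA that was pelleted with ribosomes through sucrose. There was 1 library for each genotype and RNA fraction, so differences between them had no replicate check and no test, and "higher" and "lower" refer to these libraries. The labels give neither the mutated gene, the allele nor the genetic background, nor how many kernels or plants were pooled, and they name no treatment.

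Endosperm fills the cereal kernel with starch and storage protein. In maize the storage proteins are mostly zeins, prolamins encoded by families of near-identical, mostly intronless genes that often lie side by side, while the enzymes of sucrose and starch metabolism, translation factors and chaperones are encoded by longer genes with introns. Polysomes are messenger RNAs loaded with several ribosomes, and RNA recovered with them is taken as the part being translated. The yeast protein Rea1, or midasin, is an ATPase of the AAA family that removes assembly factors from the precursor of the large ribosomal subunit. The files give each locus by its position on the genome build B73 RefGen_v3 and pair no locus with a gene name, so which of these genes a locus holds is not stated, the endosperm label could not be checked against marker genes, and no sequence is shown. Reads of near-identical copies may have been divided among loci, so the value of any single member of a gene family is uncertain.

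The members held a similar part of the RNA signal in every library. In total RNA their summed share of all FPKM was 19.1% (wild type) and 22.7% (rea1), and in polysome-bound RNA it was 26.2% and 25.3%. The median member stood at 537 (wild type) and 1282 FPKM (rea1) in total RNA and at 617 and 906 FPKM in polysome-bound RNA. As deposited, the median was thus lowest in wild-type total RNA and highest in rea1 total RNA, while the sums of the members differed by at most 1.26-fold between the libraries. With median-of-ratios scaling wild-type total RNA was still lowest (613), but rea1 polysome-bound RNA had the highest median (923 against 877 in rea1 total RNA), and equal sums without the 50 most abundant loci gave the same order (867 against 857). Rea1 total RNA was the library with the highest value for 69 members and wild-type total RNA the one with the lowest value for 54. Both held for 43 members, and under these scalings rea1 total RNA was highest for 42 and 43 members. High values there were common among the 17682 loci whose mean reached 1 FPKM. In total RNA 14993 of these loci were higher in rea1 than in wild type, as were 83 members. In rea1 13626 of them were higher in total than in polysome-bound RNA, as were 74 members.

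**Figure D1:**
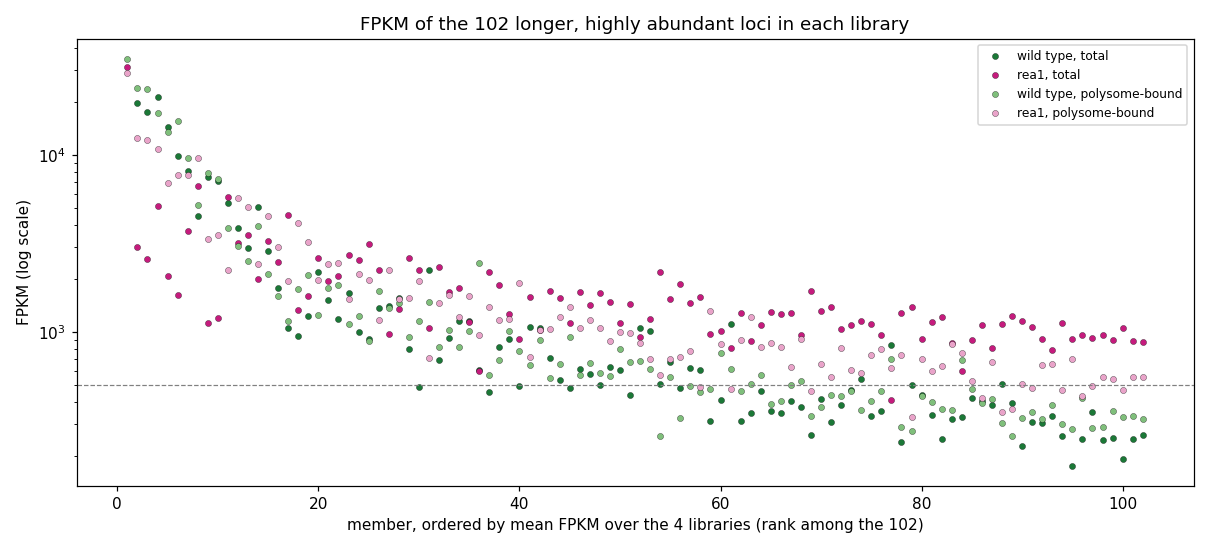
FPKM (log scale) of each of the 102 loci in the 4 libraries, ordered by mean FPKM; the dashed line is 500 FPKM, and the value of the first locus in wild-type total RNA, listed at 0, is not drawn. At the left, rea1 total RNA lies below the other libraries for most loci (3009 against 19622 FPKM for the second), and at the right it lies above them (873 against 263 FPKM for the last).

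The choice of members used these same levels. Of the 102, 48 reached 500 FPKM in every library, while 101 reached it in rea1 total RNA, 90 in rea1 polysome-bound, 62 in wild-type polysome-bound and 56 in wild-type total RNA. The 8 members that reached 500 FPKM in only 1 library did so in rea1 total RNA, so the rule favoured loci that were high there. The lowest means inside the rule were 503 FPKM (chromosome 4, 232945222 to 232947736) and 506 FPKM (chromosome 4, 43082419 to 43084747), and the highest outside it were 495 (chromosome 8, 39127853 to 39133971) and 486 FPKM (chromosome 6, 136879633 to 136883005). The shortest members were 1210 bp (chromosome 5, 167791848 to 167793057) and 1271 bp (chromosome 4, 29963321 to 29964591), and the longest abundant loci left out were 1188 bp (chromosome 3, 146123771 to 146124958) and 1171 bp (chromosome 8, 108689439 to 108690609). Summed FPKM per library lay between 846544 and 977156, and the number of reads, and so the counting error, is not given in the sources used here.

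In total RNA, the most abundant members were several-fold lower in rea1 and the less abundant ones were higher. Of the 102 members, 63 were higher by 2-fold or more in rea1, against a background of 26.3% of the 17682 loci whose mean reached 1 FPKM, and 11 were lower by 2-fold or more, against a background of 1.91%. The median log2 ratio of (FPKM + 1) was 1.23 for the members and 0.62 for all tested loci. The median fell with abundance. It was -2.33 for the 8 members with a mean of at least 5000 FPKM, 0.48 for the 34 members from 1000 to 5000 and 1.45 for the 60 members from 500 to 1000. Lower by 2-fold or more were 6, 4 and 1 of these, and 1, 8 and 54 were higher by as much. Because the mean that chose the members includes both libraries of the ratio, loci of at least 1200 bp were also sorted by their mean in polysome-bound RNA alone. At 5000 FPKM or more 8 of 10 were then lower by 2-fold or more (median log2 ratio -2.59), at 1000 to 5000 7 of 29 were higher and 2 lower (0.48), and at 500 to 1000 33 of 42 were higher and 1 lower (1.30). In bulk RNA a lower value cannot tell fewer cells of a type from less RNA per cell.

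FPKM is a share of each library, so the counts in total RNA depended on the scaling. Median-of-ratios scaling moved the median log2 ratio of all tested loci by -0.62, to 0.00, and equal sums without the 50 most abundant loci moved it by -0.76. Under the former 24 members were higher by 2-fold or more and 14 lower, against 6.74% and 5.65% of all tested loci under that scaling. Under the latter 17 were higher and 16 lower, against 5.07% and 8.06%. Both scalings lowered the ratio of every member. The 11 members that were lower by 2-fold or more as deposited therefore had to remain so, which is no check of them. Of the 63 higher ones 24 and 17 remained. The median member was above the median of all tested loci in each case, at 0.49 and 0.32 against 0.00 and -0.15.

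The lower members were led by loci of 2 chromosomes. On chromosome 4, the locus at 29963321 to 29964591 measured 19622 (wild type) and 3009 FPKM (rea1) in total RNA, and 23918 and 12439.7 in polysome-bound RNA. The locus at 5548772 to 5561370 of the same chromosome, 12599 bp long, measured 17492 and 2573 FPKM in total RNA and 23423 and 12154 in polysome-bound RNA. That at 5157899 to 5159215 measured 21236 and 5142 FPKM in total and 17320.5 and 10835 in polysome-bound RNA. In each of these 3 loci both rea1 libraries lay below both wild-type libraries, and rea1 total RNA was the lowest, with folds of wild type over rea1 of 6.52, 6.80 and 4.13 in total RNA. Next to them, the locus at 5521259 to 5523302 measured 14331 and 2074 FPKM in total and 13453 and 6896 in polysome-bound RNA, the largest fold among members above 0 in all 4 libraries (6.91). The locus at 5539880 to 5541152 measured 7523 and 1125 FPKM in total and 7914 and 3345 in polysome-bound RNA. At 30089546 to 30091004 the values were 7133 and 1199 FPKM in total and 7348 and 3517 in polysome-bound RNA. Wild-type total and polysome-bound values of these 3 loci were close to each other, and the rea1 total values were lower by factors of 6.91, 6.69 and 5.95. On chromosome 7, the locus at 120206897 to 120208211 measured 9911 and 1621 FPKM in total RNA and 15484 and 7654 in polysome-bound RNA, a 6.11-fold difference in total RNA.

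Smaller differences made up the rest of the lower members. The locus at 5171933 to 5177135 of chromosome 4 measured 5099 (wild type) and 1994 FPKM (rea1) in total RNA, and 3964 and 2431 in polysome-bound RNA (2.56-fold in total). On chromosome 2, 160784375 to 160785866 measured 8138 and 3736 FPKM in total and 9646 and 7666.5 in polysome-bound RNA (2.18-fold in total). The remaining 2, named after their values were seen, lay near the 2-fold limit. They were chromosome 1, 296097227 to 296102118, with 2245 and 1053 FPKM in total and 1467 and 715 in polysome-bound RNA, and chromosome 5, 82479947 to 82483338, with 840 and 412 FPKM in total and 702 and 625 in polysome-bound RNA. The latter is the lower member with a mean under 1000 FPKM, and its polysome-bound values differed by a log2 ratio of -0.17 only.

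Of the 10 most abundant members, 8 were thus lower by 2-fold or more in rea1 total RNA, and the others went the opposite way as deposited. Chromosome 1, 197301249 to 197304338, measured 4531 (wild type) and 6642 FPKM (rea1) in total RNA, and 5218 and 9581 in polysome-bound RNA, with log2 ratios of 0.55 and 0.88. Under median-of-ratios scaling its ratio in total RNA was -0.19, so its direction there depended on the scaling. The most abundant member of all, chromosome 7, 120233940 to 120236057, had a listed value of 0 for wild-type total RNA, while rea1 total RNA gave 31354 FPKM, the highest of all entries there. In polysome-bound RNA it measured 34692 (wild type) and 28979 FPKM (rea1), a difference of 1.20-fold. An exact 0 can be a failed estimate, so no fold is given in total RNA for this locus, and it is counted among the 63 only because of the added 1 FPKM. The nearest other entry, 250 bp away and 496 bp long, measured 1.25 FPKM in wild-type total and 2.40 in rea1 total RNA and was listed at 0 in polysome-bound RNA. The summed members were 1.06-fold higher in rea1 total RNA with this locus and 1.12-fold lower without it, opposite in the latter case to the median ratio.

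Among the 101 members above 0 in all libraries, 13 lay at a log2 ratio of 2 or more in total RNA as deposited, and 10 of these had a mean under 1000 FPKM, where the rule favoured loci high in rea1 total RNA. Chromosome 4, 194518163 to 194520236, measured 261 (wild type) and 1711 FPKM (rea1) in total RNA, and 335 and 461 in polysome-bound RNA. Its log2 ratio was 2.71 in total RNA, the highest of the 101, and 0.46 in polysome-bound RNA, and it reached 500 FPKM in rea1 total RNA only. Under median-of-ratios scaling the total RNA ratio was 1.97.

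**Figure D2:**
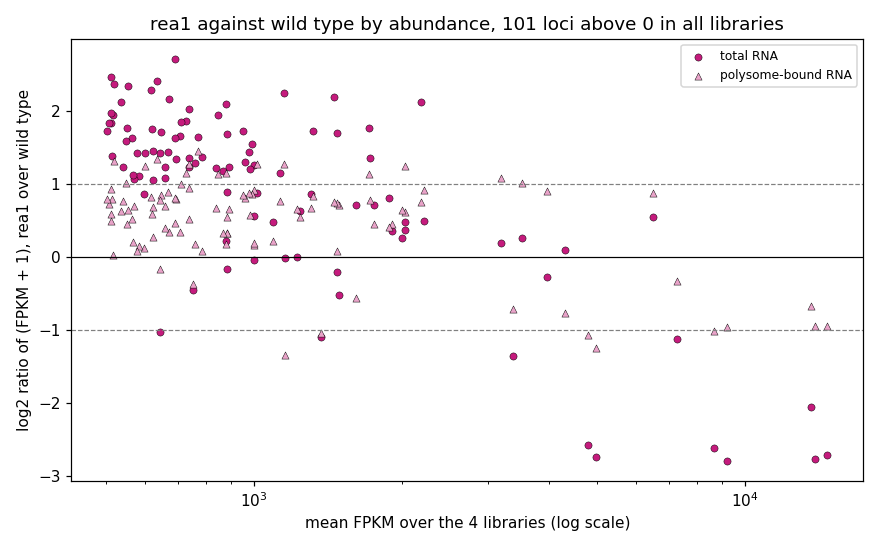
Log2 ratio of (FPKM + 1), rea1 over wild type, against mean FPKM (log scale) for the 101 loci above 0 in all libraries; circles are total and triangles polysome-bound RNA, and dashed lines mark 2-fold. The abundant loci at the right reach -2.79 in total RNA and -1.24 in polysome-bound RNA, and most loci under 1000 FPKM lie above 0 in both.

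In polysome-bound RNA the members differed less between the genotypes. Higher by 2-fold or more in rea1 were 16 members, against a background of 3.96%, and lower by 2-fold or more were 5, against a background of 1.34%; the median log2 ratio was 0.64, and 0.24 over all tested loci. Median-of-ratios scaling gave 6 higher and 9 lower, against 2.09% and 2.43% of all tested loci. Equal sums without the 50 most abundant loci gave 1 higher, no more than the 1.62% of all tested loci, and 11 lower, against 3.07%. The direction of the split of these 2-fold calls thus depended on the scaling. The median member stayed above the median of all tested loci, at 0.38 and 0.27 against 0.03 and -0.05. The members with the highest ratios were chromosome 5, 112964229 to 112966353, with 476 (wild type) and 1308 FPKM (rea1) in polysome-bound RNA (log2 ratio 1.46) and 314 and 979 in total RNA, and chromosome 6, 137601820 to 137603647, with 291 and 737 FPKM in polysome-bound (1.34) and 240.0 and 1273 in total RNA. For both loci each rea1 library was above each wild-type library. The lowest ratio was that of chromosome 2, 21389641 to 21391610, with 2460.0 (wild type) and 966 FPKM (rea1) in polysome-bound RNA (log2 ratio -1.35). Total RNA of this locus gave 608 and 601 FPKM, a log2 ratio of -0.02 as deposited, -0.75 under median-of-ratios scaling and -0.93 with equal sums without the 50 most abundant loci. Next came the chromosome 4 locus at 5539880 described above, with -1.24.

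The genotype ratios of the 2 RNA fractions went the same way for most members. The ratio in total RNA was the higher for 75 of the 102, a share like that of all tested loci (13350 of 17682). Under median-of-ratios scaling it was the higher for 59 members, and with equal sums without the 50 most abundant loci for 58. Of the 63 members higher by 2-fold or more in total RNA, 12 (19.0%) were higher by 2-fold or more in polysome-bound RNA too, which is 12 of the 16 higher there. Of the 11 lower by 2-fold or more in total RNA, 4 were so in polysome-bound RNA, and all 11 were below 0 there. The polysome ratios of the 63 ran from -0.26, for the locus listed at 0, to 1.46 with a median of 0.76, and those of the 11 from -1.24 to -0.17 with a median of -0.95. No member was higher by 2-fold or more in 1 fraction and lower by 2-fold or more in the other. Most tested loci were also higher in rea1 in each fraction, 14993 of 17682 in total and 12731 in polysome-bound RNA, as were 83 and 86 members. A shared direction is therefore frequent in general, and the overlap of 2-fold calls among all tested loci was not counted. Over the 101 members above 0 in all libraries the ratios were related with r = 0.75 (Pearson) and rho = 0.54 (Spearman). This is a description across loci; both fractions of a genotype may come from the same tissue, since the labels' protocols speak of equal amounts of powder.

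**Figure D3:**
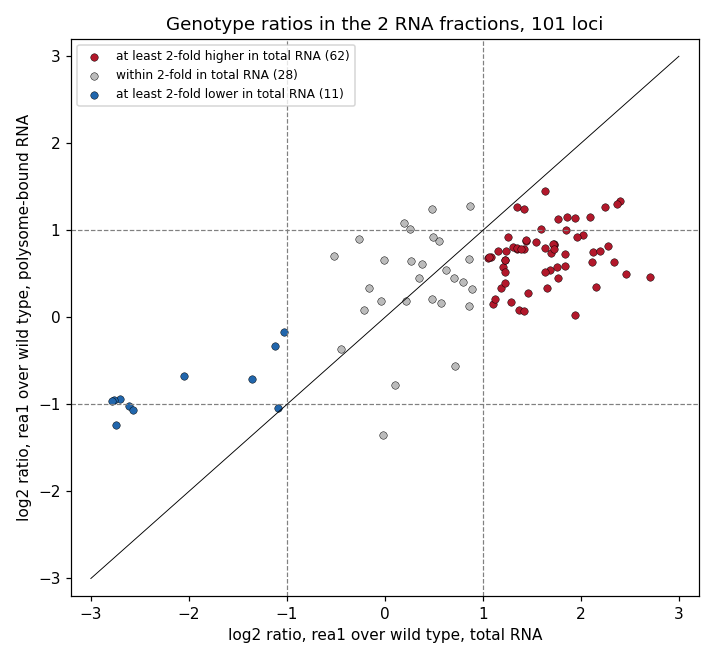
Genotype log2 ratio of (FPKM + 1), rea1 over wild type, with polysome-bound RNA on the y axis and total RNA on the x axis, 1 point for each of 101 loci, with dashed lines at 2-fold and a solid line of equality. All 11 loci that were lower by 2-fold or more in total RNA lie below 0 in polysome-bound RNA, and the 62 that were higher by 2-fold or more lie above 0 there.

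Within wild type, the polysome-bound and total values of the members were close. Higher by 2-fold or more in polysome-bound RNA were 4 of the 102, against a background of 4.51%, and none was lower by 2-fold or more, against a background of 6.97%; among all 655 loci of 100 to 500 mean FPKM and the same minimum length the shares were 2.60% and 3.36%. The median log2 ratio of polysome-bound over total RNA was 0.19, with a middle range (quartiles) of -0.25 to 0.39, and the median of all tested loci was -0.06. Besides the locus with a listed 0, the higher members were chromosome 2, 21389641 to 21391610 (608 FPKM in total and 2460.0 in polysome-bound RNA, log2 ratio 2.02), chromosome 5, 167791848 to 167793057 (488 and 1150.2, 1.24), and chromosome 4, 36910205 to 36917779 (331 and 695, 1.07). The last was named after its values were seen, and the chromosome 5 locus is also the shortest member. The lowest ratios were those of chromosome 4, 36338850 to 36340309, with 508 FPKM in total and 258 in polysome-bound RNA (-0.98), and of chromosome 1, 141745664 to 141747718, with 504 and 274 FPKM (-0.88). FPKM is relative to each library, so such a ratio is not the share of a transcript on polysomes.

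In rea1 the same ratio was spread more widely. Higher by 2-fold or more in polysome-bound RNA were 12 members, against a background of 2.91%. Lower by 2-fold or more were 19 (18.6%), no more than the background of 20.3%. The median log2 ratio was -0.52 and its quartiles were -0.88 and 0.27. Over all tested loci the median was -0.47, and 49 of the 102 members lay above it, so the typical member was like the tested loci. Among the 655 loci of 100 to 500 mean FPKM and the same minimum length 1.98% were higher and 22.9% lower. The distance between their quartiles was also larger in rea1 (0.89) than in wild type (0.60). With median-of-ratios scaling 20 members were higher and 6 lower, against 7.19% and 7.73% of all tested loci, so the lower count was near its background. The median was then 0.05, of the opposite sign, against 0.02 over all tested loci. Loci of the same minimum length chosen by the wild-type libraries alone, which this ratio does not use, had 12 higher and 6 lower of 63 and a median of -0.16. All 12 higher members had a mean of at least 1000 FPKM, and 16 of the 19 lower ones had a mean under 1000. The highest ratios were 2.24, for the chromosome 4 locus at 5548772 and the chromosome 7 locus at 120206897, whose rea1 values are given above. Chromosome 1, 141745664 to 141747718, was at 1383.5 FPKM in rea1 total and 332 in polysome-bound RNA (-2.06), and chromosome 4, 36338850 to 36340309, at 2170 and 572 (-1.92). These were also the lowest members in wild type, where the ratios were -0.88 and -0.98. The ratios of the 12 higher members in wild type ran from -0.29 to 0.86, and those of the 19 lower ones from -0.98 to 0.79. None of these 31 was thus past 2-fold in wild type. Only 4 of all 102 members were past it there, so none among 31 is little different from that rate.

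**Figure D4:**
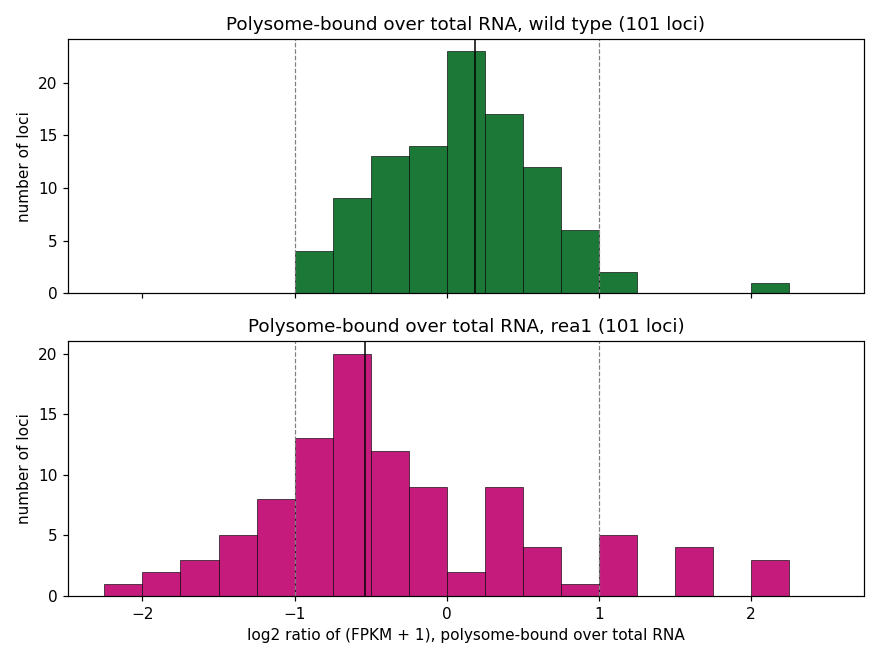
Number of loci by log2 ratio of polysome-bound over total RNA in wild type (top) and rea1 (bottom), for 101 loci above 0 in all libraries; solid lines are medians and dashed lines mark 2-fold. In wild type 98 loci lie within 2-fold, and in rea1 70 do.

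As deposited, the ratio of polysome-bound to total RNA moved between the genotypes by values mostly above 0 for the most abundant members and below 0 for the least abundant. This change is the ratio of rea1 less that of wild type and uses all 4 libraries, so it shares libraries with each comparison above. Higher by 2-fold or more in rea1 were 9 members, against a background of 2.05%. Lower by 2-fold or more were 27 (26.5%), against a background of 15.5%. The members' median was -0.57 (log2), against -0.37 over all tested loci. Among the 655 loci of 100 to 500 mean FPKM and the same minimum length, 2.44% moved up by 2-fold or more and 32.5% down. The typical change of that class was -0.65 (median). A lowered ratio was thus no more common among the members than in this class of less abundant loci. Median-of-ratios scaling gave 16 higher and 7 lower, against 5.02% and 6.35% of all tested loci, so the lower count was near its background, and a median of -0.10 against 0.04. The highest values were 1.82, for the chromosome 4 loci at 5521259 and 5548772. The lowest among members above 0 in all libraries was -2.25, for the chromosome 4 locus at 194518163, and that of the locus listed at 0 in wild-type total RNA has no interpretable size. The median was 1.48 for the 8 members of at least 5000 FPKM, -0.01 for the 34 from 1000 to 5000 and -0.84 for the 60 from 500 to 1000. These medians are a description, since the mean that set the classes uses the same 4 libraries and no other library is left to sort by. Of the 60, 59 reached 500 FPKM in rea1 total RNA and 18 in wild-type total RNA, so the choice of members itself favoured values below 0.

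Several members lie near other abundant loci. With gaps of up to 500 kb, 16 members formed 6 neighbourhoods, and a further member (chromosome 1, 22937609 to 22939512) lay 22 bp from an abundant locus shorter than 1200 bp. Of these 17 members 8 were lower by 2-fold or more and 9 higher by 2-fold or more in rea1 total RNA. The 9 include the member listed at 0 in wild-type total RNA, for which no fold is given. Among all 102 members 11 were lower and 63 higher, and among all tested loci 1.91% and 26.3%. The neighbourhood at 4.76 to 5.56 Mb of chromosome 4 held 6 members and 8 short abundant loci among them. Its members summed to 66079 (wild type) and 14141 FPKM (rea1) in total RNA (4.67-fold lower), and to 66332 and 36031 in polysome-bound RNA (1.84-fold lower). Of those 6 members 5 were lower by 2-fold or more in total RNA. The exception, at 4758093 to 4759848 at its edge, measured 398 (wild type) and 1233 FPKM (rea1) in total RNA, and 257 and 369 in polysome-bound RNA. The 2 members at 29.96 to 30.09 Mb summed to 26755 and 4209 FPKM in total and to 31265.5 and 15956 in polysome-bound RNA, 6.36-fold and 1.96-fold lower in rea1. In the chromosome 7 neighbourhood at 120.21 to 120.24 Mb lay the locus at 120206897 and the member listed at 0.

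The other 3 neighbourhoods held 2 members each, all higher in rea1 as deposited. On chromosome 6, 136703065 to 136706224 measured 914 (wild type) and 3121 FPKM (rea1) in total RNA and 890.0 and 1957 in polysome-bound RNA. Its neighbour at 136755765 to 136759415 measured 358 and 1300.0 FPKM in total and 389 and 865 in polysome-bound RNA. The log2 ratios of this pair were 1.77 and 1.86 in total and 1.14 and 1.15 in polysome-bound RNA. On chromosome 4, the members at 232843893 to 232846622 and 232945222 to 232947736 had ratios of 1.42 and 1.73 in total and of 0.78 and 0.79 in polysome-bound RNA. On chromosome 5, those at 67851004 to 67853565 and 68048817 to 68051710 had ratios of 1.23 and 1.16 in total and of 0.66 and 0.76 in polysome-bound RNA. The members of each of these 3 pairs had like ratios, and whether they share reads was not tested. Like ratios were common among members in general. The 60 members from 500 to 1000 FPKM had quartiles of 1.23 and 1.84 in total and of 0.34 and 0.87 in polysome-bound RNA. The chromosome 1 member beside a short locus measured 710 (wild type) and 1700 FPKM (rea1) in total RNA and 549 and 1041 in polysome-bound RNA, and the short locus (22936909 to 22937586, 678 bp) was at 665, 1308, 603 and 1021 FPKM in the same order. At 22 bp apart these entries had the same order of libraries, from rea1 total RNA down to rea1 polysome-bound, wild-type total and wild-type polysome-bound RNA, and whether they belong to a single transcript was not examined.

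**Figure D5:**
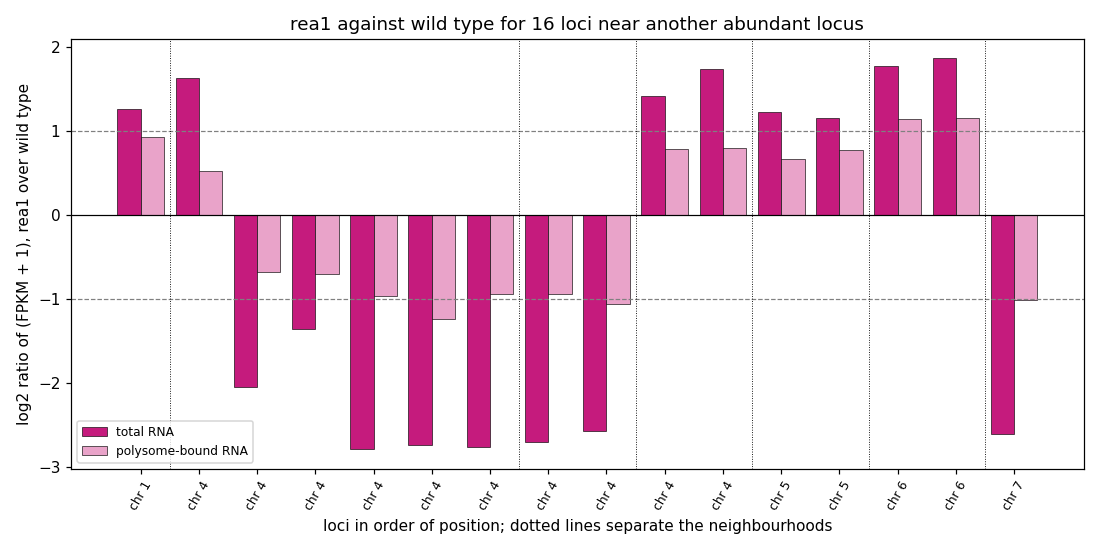
Log2 ratio of (FPKM + 1), rea1 over wild type, in total (dark) and polysome-bound RNA (light) for 16 loci within 500 kb of another abundant locus, in order of position, with dotted lines between neighbourhoods and dashed lines at 2-fold; the member listed at 0 is left out. From the second bar pair of the large chromosome 4 neighbourhood the ratios in total RNA run from -2.79 to -1.35, while the pairs on chromosomes 4, 5 and 6 to the right reach 1.73, 1.23 and 1.86.

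The members were spread over all 10 chromosomes and no scaffold. Chromosome 4 held the most, 19 (18.6%, against 10.1% of tested loci), and 7 of the 11 that were lower by 2-fold or more in rea1 total RNA, together with 9 higher ones. Chromosome 10 held 1 member (0.98%, against 6.74% of tested loci), named after its values were seen, at 4676400 to 4679041, with 1146 FPKM in wild type and 1141 in rea1 total RNA and 1015 and 1599 in polysome-bound RNA. Locus length ran from 1210 to 19831 bp with a median of 2722, introns included, against 3989 over all tested loci, and it had nearly the same median in members above and below 1000 FPKM (2711 and 2722 bp). Among the 60 members under 1000 FPKM total RNA had a median log2 ratio of 1.69 for the 13 shorter than 2000 bp, 1.59 for the 30 of 2000 to 4000 bp and 1.37 for the 17 that were longer. Polysome-bound over total RNA in rea1 had medians of -0.99, -0.66 and -0.49 in these classes. Over all 102 members the medians by length were 0.80, 1.37 and 1.13 in total RNA, and -0.54, -0.59 and -0.37 for polysome-bound over total RNA in rea1. The steady order by length was thus seen in the 60 only. Of these, 59 reached 500 FPKM in rea1 total RNA, which both ratios use, and 18 in wild-type total RNA, so the rule favoured loci high in the former.

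Only 3 members overlapped another entry, and each shared its exact coordinates with it; they were named after their values were seen. Chromosome 6, 4596812 to 4616642, the longest member, measured 310 (wild type) and 1060 FPKM (rea1) in total RNA and 353 and 483 in polysome-bound RNA. Chromosome 4, 237802001 to 237816032, measured 612 and 1580 FPKM in total and 458 and 487 in polysome-bound RNA. The third was the chromosome 4 locus at 36910205. The second entries at these coordinates were at most at 5.83, 4.96 and 2.29 FPKM in any library, so nearly all signal lay in the entry counted here.

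Set beside abundant loci shorter than 1200 bp, the members differed in their typical direction. The 39 short loci had a median log2 ratio of -1.66 in total RNA, with 26 lower by 2-fold or more and 5 higher by 2-fold or more, against 1.23, 11 and 63 for the 102 members. Their summed FPKM was 488649 in wild type and 117562 in rea1 total RNA, while that of the members was 187089 and 197952. Abundance differs between these classes, since 28 of the 39 short loci and 42 of the 102 members had a mean of at least 1000 FPKM. Within that range 24 of 28 short loci and 10 of 42 members were lower by 2-fold or more in rea1 total RNA. From 500 to 1000 FPKM 2 of 11 short loci and 1 of 60 members were, and 4 and 54 were higher by 2-fold or more. The 655 loci of 100 to 500 FPKM with the same minimum length had a median of 1.09, with 52.8% higher by 2-fold or more and 2.44% lower. No test of these differences was made, as each rests on 1 library per group.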

How the data were processed

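RNA sequencing of 4 libraries was used, 1 each of total and polysome-bound RNA from rea1 and wild-type endosperm. The deposited values were FPKM per locus, computed by the authors. The submitters' processing notes name Bowtie 0.12.2 and B73 RefGen_v3. How FPKM was computed, on which annotation and from how many pooled replicates, is not given in the sources used here. Although the series' design mentions triplicates, every locus has 1 value per file, and no p-value was computed.

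Each file lists 29642 entries at 28825 distinct coordinates. File starts count from 0, judged by 48 of 73 organelle loci whose length is then a multiple of 3 (16 otherwise), and are printed counted from 1. Log2 ratios of (FPKM + 1) were taken, which understates differences of low loci, and at least 2-fold differences were counted, beside the share among the 17682 loci whose mean reached 1 FPKM. Entries were matched by their shared row order and coordinate.

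Named loci were the 10 most abundant members, the 2 highest and 2 lowest members of each of the 5 comparisons, members listed at 0, members within 500 kb of another abundant locus, and loci next to each limit of the rule; others are marked as named after their values were seen. Members and comparisons were chosen with earlier results of these data known. Gene names were available for another build alone, so none were joined and gene lists were not used. Alternatives were pseudocounts of 0.1 and 5, other filters on low values, median-of-ratios scaling, equal sums without the 50 most abundant loci, and other choices of members. Scripts were tested on simulated data. Python 3.11.15, numpy 2.4.6, pandas 2.3.3 and matplotlib 3.10.9 were used.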

Additional observations from a re-analysis of the deposited data

Results flagged for a closer look

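In 10 members above 0 in all libraries a log2 ratio of at least 0.5 in 1 direction stood against at least 0.5 in the other direction in the second RNA fraction or genotype. These differences in direction were not tested, for want of replicate libraries, and the share of such loci among all tested loci was not counted. Opposite signs, without the limit of 0.5, remained in 7 of the 10 under median-of-ratios scaling and in 8 with equal sums without the 50 most abundant loci.

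For rea1 against wild type, chromosome 5, 14084193 to 14085595, had a log2 ratio of 0.71 in total RNA and -0.56 in polysome-bound RNA, and chromosome 9, 23267684 to 23271612, had -0.52 and 0.71.

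For polysome-bound against total RNA, the other 8 were above 0 in wild type and below 0 in rea1. Over all tested loci the median of this ratio was also lower in rea1 (-0.47) than in wild type (-0.06), so a shift this way was general. Chromosome 6, 151832102 to 151833888, had 0.77 (wild type) and -1.15 (rea1), and chromosome 6, 90208969 to 90211653, had 0.53 and -1.17. On chromosome 8, 28528900 to 28531027 had 0.79 and -1.18, and 163737203 to 163740608 had 0.55 and -0.91. On chromosome 1, 277805915 to 277807951 had 0.57 and -0.51, and 233951533 to 233957184 had 0.51 and -0.74. Chromosome 5, 56870925 to 56872383, had 0.50 and -1.31, and chromosome 7, 173595109 to 173596932, had 0.60 and -0.54.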

How the results depend on the processing

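No paired analysis was possible because each genotype and RNA fraction has 1 library and the labels give no replicate numbers. For the same reason no library could be left out. The depth behind the values is unknown. All 15 results, the counts of members at least 2-fold higher and lower and the median log2 ratio in each of the 5 comparisons, moved by less than 0.1 (log2) or 1.5 times with pseudocounts of 0.1 or 5, other filters on low values, members above 0 in all libraries or members that share no coordinate.

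Median-of-ratios scaling gave 24 higher members and a median of 0.49 in total RNA, 6 higher, 9 lower and 0.38 in polysome-bound RNA, a median of 0.29 for polysome-bound against total RNA in wild type, 20 higher, 6 lower and a reversed median of 0.051 for it in rea1, and 16 higher, 7 lower and -0.095 for the change of that ratio. Equal sums without the 50 most abundant loci gave 17 higher and 0.32 in total RNA, 1 higher, 11 lower and 0.27 in polysome-bound RNA, 1 lower for the ratio in wild type, 6 lower and -0.0069 for it in rea1, and 17 higher, 6 lower and -0.028 for its change. Both divide each library by a constant before 1 FPKM is added, so the ratios of abundant loci shift nearly alike and those of low loci shift less. In total RNA median-of-ratios scaling took the members' median from 1.23 to 0.49, while that of all tested loci moved by -0.62.

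With a mean of at least 1000 FPKM, which left 42 members, 9 were higher (median 0.36) in total RNA and 6 (0.50) in polysome-bound RNA. The ratio in rea1 had 3 lower and a reversed median of 0.26, and its change 5 lower and a reversed median of 0.23. Members chosen by the 2 libraries that a ratio did not use, an alternative added after the data were seen, gave 41 higher of 81 and a median of 1.06 in total RNA, 1 lower of 163 for the ratio in wild type, and 6 lower of 63 and -0.16 for it in rea1. With gaps of up to 1 Mb, 26 members lay in groups of members in place of 16, and 30 in groups with short abundant loci in place of 17.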
